A study of Mus musculus with 26 samples.

Results

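The genes of the endothelin, nitric oxide and adrenomedullin systems were followed in whole mouse embryos with and without *Traf7*. The 9 genes were chosen by name out of the 54532 genes in each expression table, and all 9 were present in both tables and passed the filter on low values. They are *Edn1*, *Ece1*, *Ednra* and *Ednrb* of the endothelin system, *Nos3* of the nitric oxide system, and *Adm*, *Calcrl*, *Ramp2* and *Ramp3* of the adrenomedullin system.

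The 3 systems set the tone and the permeability of blood vessels. Endothelin-1 is cut from its precursor by endothelin-converting enzyme and acts on endothelin receptors of smooth muscle and neural crest cells, where in the mouse embryo it patterns the lower jaw and the outflow vessels. Nitric oxide made by endothelial synthase relaxes vessels, and shear stress is known to raise the synthase while lowering endothelin-1. Adrenomedullin is a hypoxia-induced peptide that widens vessels and tightens endothelial junctions, and its receptor is formed by *Calcrl* together with a Ramp protein. Mouse embryos without *Adm*, *Calcrl* or *Ramp2* die with edema and vascular defects.

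RNA of 26 embryos at embryonic day 9.5 was sequenced, with 1 library per embryo, and the measure is FPKM, in which the fragments of a gene are divided by its length in kilobases and by the size of the library. The 6 WT and the 6 global knockout embryos (GLOko) stand in one table. GLOko embryos lack *Traf7* in all cells, through an allele deleted in the germline with E2a-Cre. The other table holds 7 endothelium-specific knockout embryos (ECko) and 7 endothelium-specific heterozygotes (EChet). ECko embryos carry Tie2-Cre with a floxed *Traf7* allele and either a further floxed or a deleted allele. EChet embryos carry Tie2-Cre and only 1 floxed allele, so that the controls of this table also express Cre and lose 1 copy of *Traf7* where Cre acts. Tie2-Cre is active in endothelium and also in blood cells. All mice were on a C57BL/6 background, the yolk sac had been removed from each embryo, and none was treated. The tables were scaled separately, so each knockout was tested against the control of its own table, and WT and EChet embryos are only set side by side.

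Reads in genes ran from 16662293 to 25364652 per library. *Traf7* was 2.41 ± 0.514 FPKM (SD, n = 6) in GLOko and 18.3 ± 3.59 in WT embryos, where WT 4, at 11.1, lay below the 18.9 to 20.6 of the other 5. It was 17.3 ± 2.21 FPKM (SD, n = 7) in ECko and 20.5 ± 1.37 in EChet embryos, and ECko 4, at 20.4, and ECko 6 lay within the EChet range. Calls were made in limma, over all genes with a mean of at least 0.1 FPKM, where the adjusted p was at most 0.05. Between GLOko and WT, 953 of 17573 genes were called higher and 880 lower, together 10.4%. These numbers were 1103 and 416 when each library was scaled to its total, leaving out globin genes and those of the mitochondrial genome. Between ECko and EChet, 10 of 17514 genes were called higher and 7 lower. Cardiomyocyte transcripts were low in GLOko 1, WT 4, ECko 3 and ECko 4, with means over 10 markers of -4.92 to -3.01 on the log2 scale relative to the controls of the same table, and GLOko 1, GLOko 2 and GLOko 6 had the fewest genes with a read, from 16852 to 18721. Where leaving out these embryos changed a call, this is stated.

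*Adm* and *Edn1* encode the peptide precursors of the adrenomedullin and endothelin systems, and their levels take up much of what follows. Their sequences before the start site, from RefSeq on GRCm38.p6, are shown as a description. Whether the marked letters bear on the levels of either gene was not tested. The windows searched ran from 250 bases before to 50 bases after each start site. Capitals mark the core of the hypoxia response element, ACGTG or GCGTG on either strand, which appears as CACGT or CACGC when it lies on the opposite strand. The lines give 250 bases of *Adm* at chr7:110627407-110627656, 250 bases of *Edn1* at chr13:42301226-42301475, all on the plus strand, and 21 bases after the *Edn1* start at chr13:42301489-42301509.
Adm: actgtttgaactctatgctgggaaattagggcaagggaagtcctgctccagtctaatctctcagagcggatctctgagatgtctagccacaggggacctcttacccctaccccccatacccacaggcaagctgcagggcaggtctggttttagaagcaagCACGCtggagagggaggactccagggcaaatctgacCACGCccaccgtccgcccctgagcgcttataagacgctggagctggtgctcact
Edn1: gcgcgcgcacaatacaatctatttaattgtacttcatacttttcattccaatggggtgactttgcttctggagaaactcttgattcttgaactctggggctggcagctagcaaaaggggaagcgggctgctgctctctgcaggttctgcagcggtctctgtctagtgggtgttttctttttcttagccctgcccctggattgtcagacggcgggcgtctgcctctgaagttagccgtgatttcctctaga
Edn1, after the start: tctggctgCACGTtgcctgtg
*Adm* had 2 cores, beginning 90 and 54 bases before the start. *Edn1* had none before the RefSeq start used here, chr13:42301476, and 1 beginning at base 22 after it. For *Edn1* no other start was searched, and the place of a core depends on the start used. Cores also stood in the windows of genes that were not called in GLOko embryos, 2 each for *Ramp3* and *Ednrb*, 1 for *Calcrl* and up to 4 in a single window for *Ece1*, while the *Ednra* window held none. The core stood in 43.8% of all 32851 RefSeq mouse promoter windows of 300 bases, and in 38.6% before the start. CACCC, the motif of Kruppel-like factors, which does not overlap these cores in either gene, was found on either strand in 57.5% of windows. It stood 3 times in the *Edn1* window, with all 3 matches on the opposite strand, and did not stand in the *Adm* window. Of the 9 genes, 7 had a window, and *Nos3* and *Ramp2* had none. A match is a run of letters and was not tested as a binding site.

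In control embryos, levels per length of gene ran from *Ece1* at the top to the ligand genes *Adm* and *Edn1* at the bottom. *Ece1*, the endothelin-converting enzyme, was 20.3 ± 1.73 FPKM in WT (SD, n = 6) and 22.7 ± 3.40 in EChet embryos (SD, n = 7), above every other gene of the 9 in each of these 13 embryos. *Ednrb*, *Ramp2* and *Ednra* followed at 7.05 to 10.7 FPKM in the means of both control groups, with ranges that overlapped from each to the next. *Calcrl* lay below them at 5.02 ± 0.832 FPKM in WT and 5.46 ± 0.140 in EChet embryos, and its range overlapped neither that of the gene above nor that of *Nos3* below. *Nos3*, *Ramp3*, *Edn1* and *Adm* were lowest, at 1.11 to 2.89 FPKM, and each overlapped its neighbor. In GLOko embryos *Adm* moved from the ninth place to the second, at 15.1 ± 13.6 FPKM, and *Nos3* moved to the ninth, at 1.59 ± 0.578 FPKM (SD, n = 6). In ECko embryos *Adm* stood sixth, at 5.43 ± 4.44 FPKM (SD, n = 7).

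**Figure D1:**
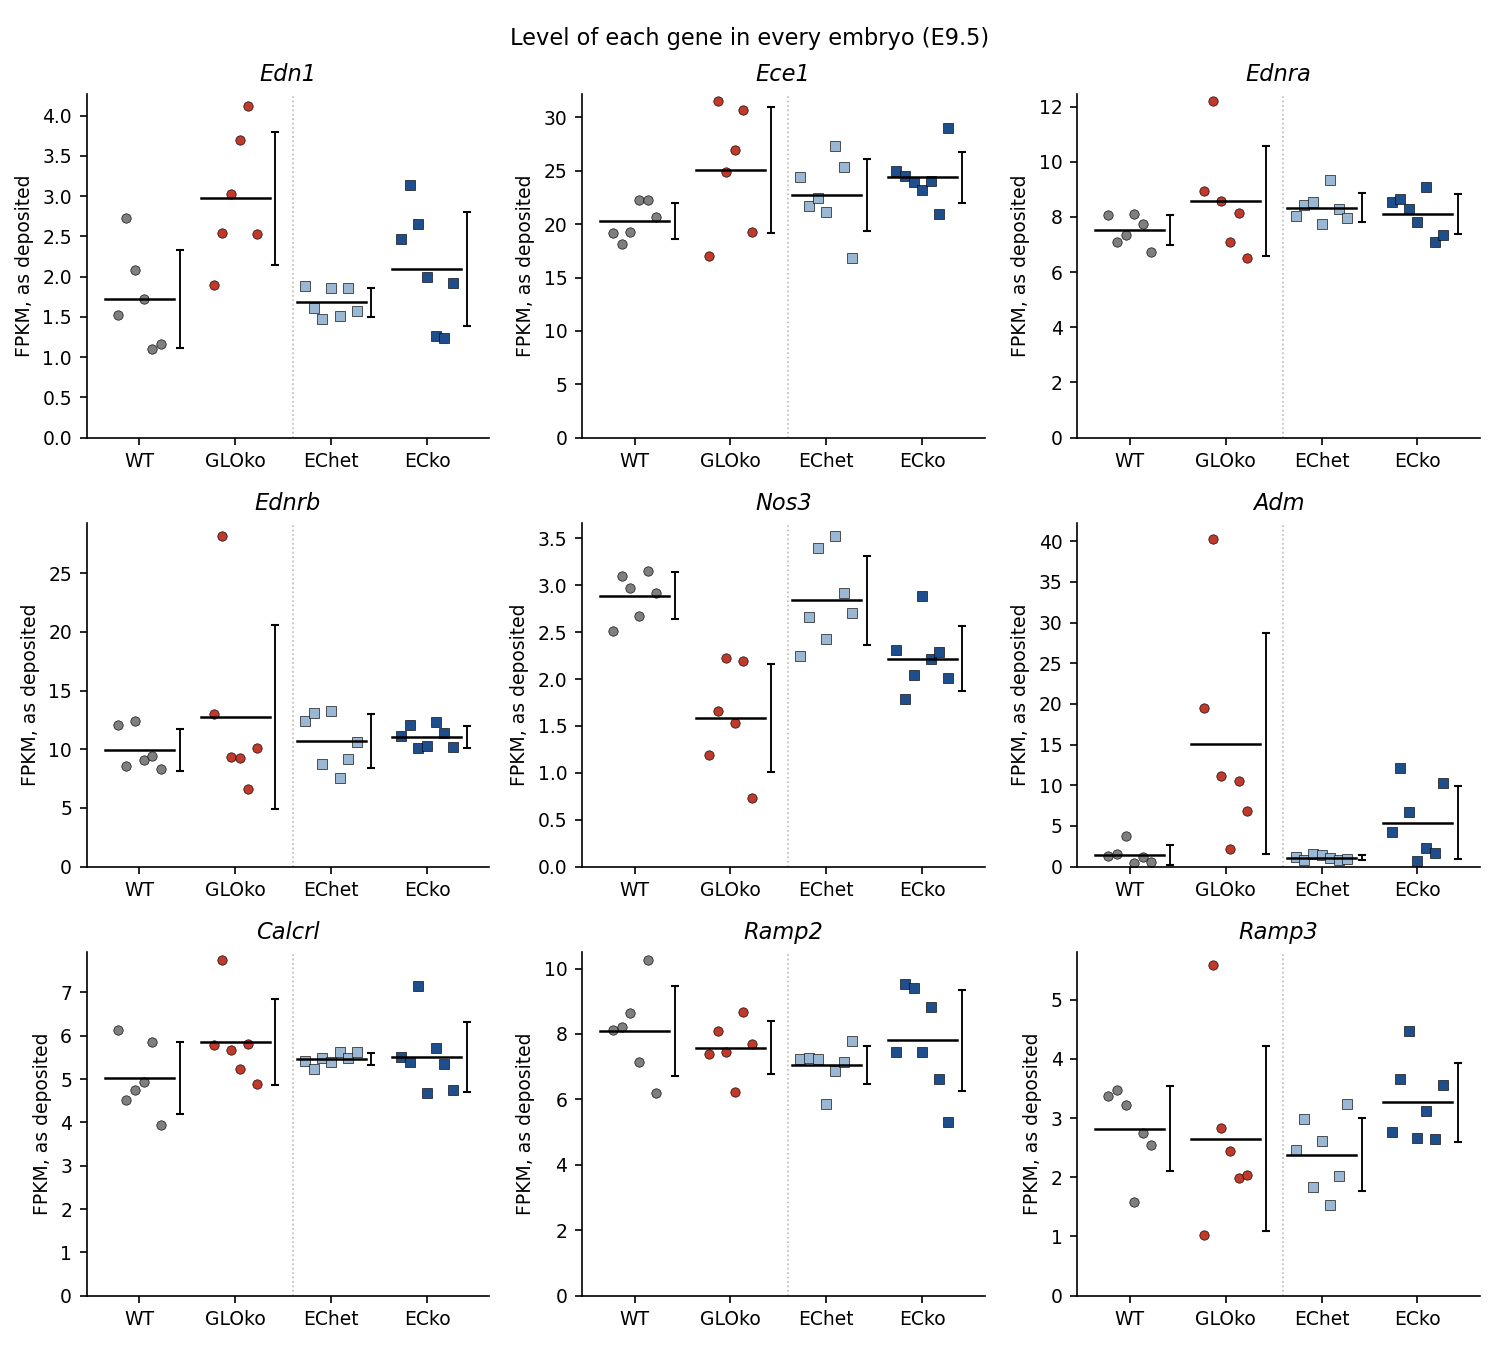
Each panel plots the FPKM of 1 gene (linear axis from 0) in every embryo, by group, with lines at group means and bars for the SD. The dotted line separates the tables, WT and GLOko (6 embryos each) from EChet and ECko (7 each). *Adm* reached 40.3 FPKM in GLOko and 12.1 in ECko embryos, and all 6 GLOko values of *Nos3* lay below those of WT.

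With *Traf7* deleted in all cells, the ligand genes rose and the nitric oxide synthase fell, while no receptor gene was called. *Adm* and *Edn1* were called higher in GLOko than in WT embryos, which is 2 of 9 genes, where 5.42% of all genes tested were called higher. *Nos3* was called lower, 1 of 9, against 5.01% of all genes. The median of the 9 log2 differences was 0.23, and 6 of them were positive, beside a median of 0.011 over all genes tested. Groups did not overlap in 3.9% of all genes with the knockout higher, and in none of the 9 genes in that direction. The other 6 genes had adjusted p values of 0.213 to 0.787 in limma.

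**Figure D2:**
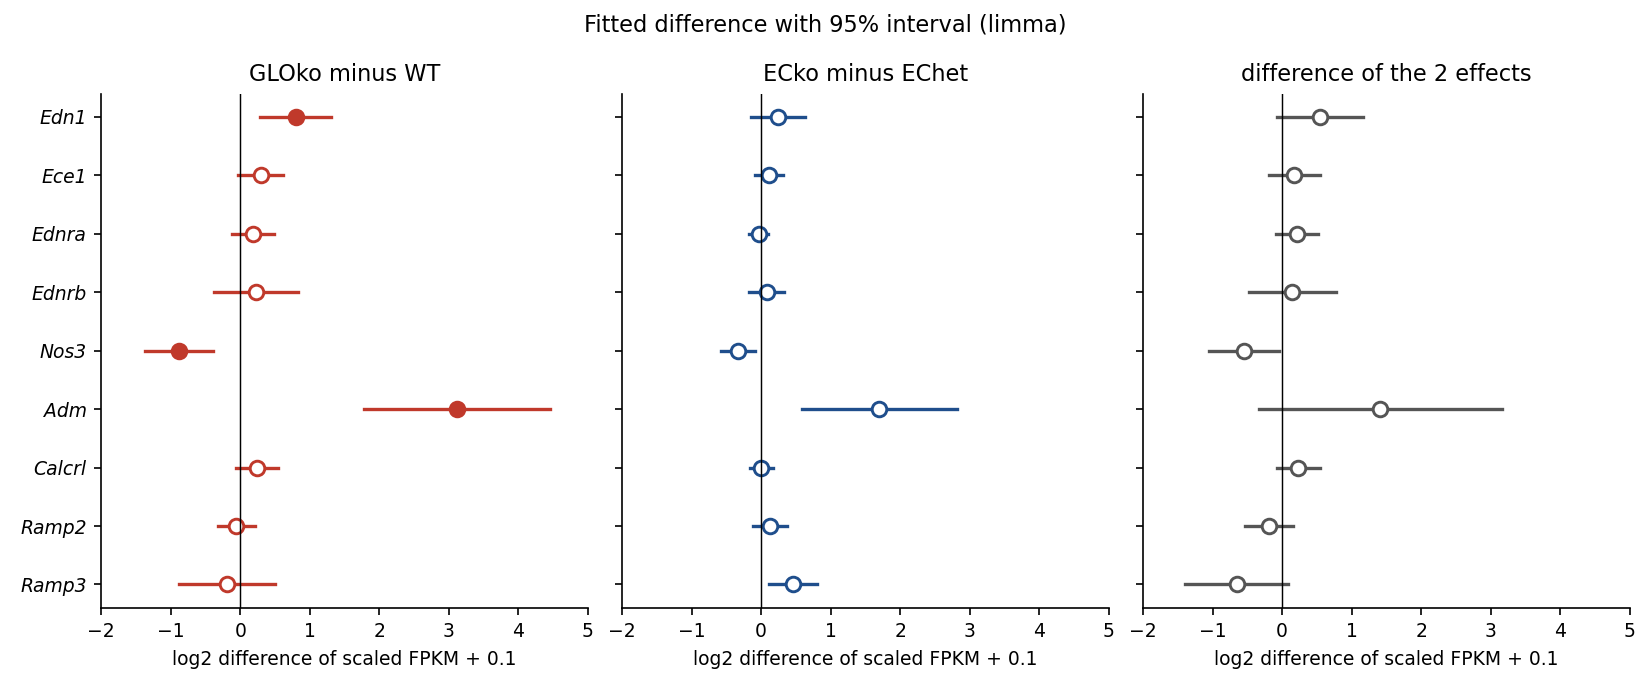
Fitted log2 differences (horizontal axis) with unadjusted 95% intervals from limma are plotted for the 9 genes, for GLOko against WT, ECko against EChet and the difference between these effects. Filled points passed an adjusted p of 0.05, namely *Edn1* (0.80), *Nos3* (-0.88) and *Adm* (3.11) in GLOko embryos, and open points did not.

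*Edn1*, which encodes the precursor of endothelin-1, ran from 1.11 to 2.73 FPKM in WT embryos, with a median of 1.623, and from 1.89 to 4.12 in GLOko embryos, with a median of 2.79. GLOko 3, GLOko 4 and GLOko 5 lay above every WT embryo, GLOko 1 was lowest of its group, and the groups overlapped. The mean was 1.73 times that of WT, with 2.97 ± 0.825 against 1.72 ± 0.611 FPKM (SD, n = 6 each). The log2 difference was 0.80 ± 0.24 (SE), with an adjusted p of 0.0472 from limma and an exact permutation p of 0.0195, both two-sided. The call rested on most of the embryos. It was lost, at log2 differences of 0.69 to 0.86 and adjusted p of 0.0570 to 0.105, when any of GLOko 3, GLOko 4, GLOko 5, GLOko 6, WT 1, WT 3, WT 4, WT 5 or WT 6 was left out. Without GLOko 1 and WT 4 together *Edn1* was not called either. Without GLOko 1, GLOko 2 and GLOko 6, the difference was 1.11 and the adjusted p 0.0232.

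Markers of yolk sac and liver endoderm were set beside *Edn1*, and no relation between them was planned or tested. Over 8 such markers, GLOko 5 and GLOko 4, the embryos highest in *Edn1*, had mean log2 levels of 4.62 and 2.98 above the average of WT. The remaining GLOko embryos had -2.32 to -0.25, and WT embryos -1.09 to 0.76. GLOko 1 was lowest of its group in both, and WT 2 was highest of its group in both. WT 5, lowest of its group in *Edn1*, had a marker mean of 0.13. In the other table, EChet 5 was highest of its group in the markers, at 0.93, with an *Edn1* of 1.52 FPKM. In the ECko group, the highest in the markers was ECko 1, at 1.57, and the highest in *Edn1* was ECko 2, whose marker mean was -0.23. The summed level of the markers was 0.342 to 436 FPKM in GLOko and 2.46 to 24.7 in WT embryos, and none of the 8 was called. Without GLOko 4 and GLOko 5, an alternative chosen after seeing the data, the *Edn1* difference was 0.59, with an adjusted p of 0.129 from limma. The part of these transcripts in the level of *Edn1* was not tested.

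*Ece1*, *Ednra* and *Ednrb*, which encode the converting enzyme and the endothelin receptors of types A and B, were not called in GLOko embryos. *Ece1* was 17.0 to 31.5 FPKM, with a median of 25.9, beside 18.2 to 22.3 in WT embryos, with a median of 19.95. In 4 of 6 GLOko embryos it was above every WT embryo, while in GLOko 1 it was below every WT embryo. Its log2 difference was 0.29 (95% interval, with no adjustment, of -0.026 to 0.61) with an adjusted p of 0.213, and it passed the threshold without GLOko 1, GLOko 2 and GLOko 6, at 0.46 and an adjusted p of 0.0123. It also passed with sample weights, at 0.37 and an adjusted p of 0.0311.

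*Ednra* was 6.50 to 12.2 FPKM in GLOko embryos, with a median of 8.35, and 6.75 to 8.11 in WT embryos, with a median of 7.56, so that the GLOko range took in the whole WT range. The difference was 0.18 (-0.12 to 0.48). *Ednrb* was 6.64 to 28.2 FPKM in GLOko embryos, with a median of 9.74, and 8.28 to 12.4 in WT embryos, with a median of 9.22. The upper end was GLOko 2 alone, since the other 5 GLOko embryos reached 13.0 at most. The difference of 0.23 (-0.37 to 0.83) became -0.039 without GLOko 2. GLOko 2 was the highest GLOko embryo for 6 of the 9 genes, namely *Ece1*, *Ednra*, *Ednrb*, *Adm*, *Calcrl* and *Ramp3*. Its mean over 15 endothelial markers was 0.88 above the WT mean on the log2 scale, against -0.17 to 0.21 in the other 5, and its mean over 10 neural crest markers was 0.34 above, against -0.19 to 0.47 in the other 5. The part of these cell types in its values was not tested.

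*Nos3*, which encodes the nitric oxide synthase of endothelium, was the only one of the 9 genes whose ranges did not overlap between GLOko and WT embryos. It ran from 2.52 to 3.15 FPKM in WT embryos, with a median of 2.95, and from 0.731 to 2.22 in GLOko embryos, with a median of 1.59. GLOko 6 was lowest, and GLOko 3 and GLOko 5 came nearest to WT. Of all genes tested, 4.81% were lower in GLOko embryos with no overlap. The log2 difference was -0.88 ± 0.23 (SE), with an adjusted p of 0.0289 from limma and an exact permutation p of 0.00216, the smallest that 6 embryos against 6 allow. The adjusted p rose to between 0.0512 and 0.0664 when any of GLOko 1, WT 2, WT 3, WT 4, WT 5 or WT 6 was left out, at differences of -0.91 to -0.82. Without GLOko 1 and WT 4 together it was 0.0859. Without GLOko 1, GLOko 2 and GLOko 6 the fall was -0.52, with an adjusted p of 0.0414.

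Of 15 markers of the endothelium, the cell type that makes this synthase, none was called lower, where 5.01% of all genes tested were. Called higher were 2 of 15, where 5.42% of all genes tested were. These were *Kdr* (the main receptor of vascular endothelial growth factor, 0.76) and *Eng* (endoglin, 0.46). The median log2 difference of the 15 was 0.14. The markers did not move together. The difference was positive for 10 of the 15, and the most negative were *Cd34* (-0.37) and *Cldn5* (-0.25), which were not called. Summed marker levels were 129 to 229 FPKM in GLOko and 126 to 150 in WT embryos. With the mean of the markers as a covariate, the *Nos3* difference was -0.99, with an adjusted p of 0.0174 from limma. In RNA of a whole embryo, fewer cells of a type and less RNA per cell cannot be told apart. *Nos3* shares 32.3% of its exon bases with *Atg9b* and *Gm15587*, which lie on the opposite strand. No source used here says whether counting used the strand, so its level is uncertain to that extent. *Atg9b* was 0.331 ± 0.154 FPKM in WT and 0.539 ± 0.267 in GLOko embryos (SD, n = 6 each).

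*Adm*, which encodes adrenomedullin, differed most of the 9 genes. It ran from 0.440 to 3.76 FPKM in WT embryos, with a median of 1.26, and from 2.21 to 40.3 in GLOko embryos, with a median of 10.9. In 5 of 6 GLOko embryos it was above every WT embryo, and GLOko 4 overlapped WT only because of WT 3, whose 3.76 lay far above the 1.58 of the next WT embryo. The mean was 10.3 times that of WT, and the log2 difference was 3.11 ± 0.62 (SE), with an adjusted p of 0.0127 from limma and an exact permutation p of 0.00433. The rise was called without any single embryo, at 2.73 to 3.56 and adjusted p of 0.00340 to 0.0328. It passed the threshold no longer without GLOko 1 and WT 4 (2.69, adjusted p of 0.0547) or without GLOko 1, GLOko 2 and GLOko 6 (2.39, adjusted p of 0.0566).

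The receptor side of adrenomedullin was not called. *Calcrl*, the receptor proper, was 4.88 to 7.75 FPKM in GLOko embryos, with a median of 5.73, and 3.94 to 6.14 in WT embryos, with a median of 4.84. The log2 difference was 0.24 (95% interval -0.060 to 0.54). *Ramp2*, the partner that gives *Calcrl* its affinity for adrenomedullin in endothelium, was 6.24 to 8.66 FPKM in GLOko and 6.19 to 10.3 in WT embryos. The difference of -0.061 had an interval of -0.33 to 0.21. *Ramp3*, the other partner that makes an adrenomedullin receptor, was 1.03 to 5.59 FPKM in GLOko and 1.58 to 3.48 in WT embryos, with GLOko 1 lowest and GLOko 2 highest of all 12. Its difference of -0.19 had the widest interval of these 3, -0.89 to 0.50. *Ramp2* shares 33.4% of its exon bases with *Vps25* on the same strand, listed at no more than 0.517 FPKM in any embryo, so that reads there could have been assigned to either gene.

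With *Traf7* deleted in endothelium, none of the 9 genes was called. Of the 17514 genes tested between ECko and EChet embryos, 17 were called, or 0.0971%. The ranges overlapped in all 9 genes, while 0.268% of genes were higher and 0.24% lower in ECko embryos with no overlap. By limma-voom on the recovered reads the number among the 9 was also 0. *Adm*, *Nos3* and *Ramp3* had unadjusted limma p values under 0.05, which is 3 of 9 genes, where 14.5% of all genes tested had one, with adjusted p of 0.203, 0.225 and 0.233. The median of the 9 log2 differences was 0.11, and 7 were positive, beside 0.00028 over all genes tested.

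*Adm* ran from 0.796 to 1.502 FPKM in EChet embryos, with a median of 1.12, and from 0.666 to 12.1 in ECko embryos, with a median of 4.28. In 6 of 7 ECko embryos it was above every EChet embryo, and in ECko 4 it was below all of them. The mean was 4.90 times that of EChet, and the log2 difference was 1.70 ± 0.52 (SE). The exact permutation p of this single gene, with no adjustment, was 0.00874. Without ECko 4 the log2 difference was 2.09, with an adjusted p of 0.0615 from limma. Without ECko 3 and ECko 4, the embryos low in cardiomyocyte transcripts, which were left out together after seeing the data, it was 2.00, with an adjusted p of 0.104. ECko 4 also had the highest *Traf7* of its group, while its *Klf2*, a flow-induced transcription factor of endothelium, was 1.38 FPKM and below the EChet range of 3.40 to 5.37.

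*Nos3* was 1.78 to 2.89 FPKM in ECko embryos, with a median of 2.21, and 2.24 to 3.53 in EChet embryos, with a median of 2.71. In 4 of 7 ECko embryos it was below every EChet embryo, and ECko 4 was the highest of its group. The mean was 0.781 times that of EChet, and the log2 difference was -0.34 ± 0.11 (SE), with an exact permutation p of 0.0192 before adjustment. Without ECko 3 and ECko 4 the difference was -0.39, with an adjusted p of 0.160 from limma. Of 15 endothelial markers none was called in either direction, where 0.0971% of all genes tested were called. Their median log2 difference was 0.10.

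*Ramp3* was 2.65 to 4.47 FPKM in ECko embryos, with a median of 3.11, and 1.53 to 3.24 in EChet embryos, with a median of 2.46. In 3 of 7 ECko embryos it was above every EChet embryo. The mean was 1.37 times that of EChet, and the log2 difference was 0.46 ± 0.16 (SE), with an exact permutation p of 0.0239 before adjustment.

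*Edn1* was 1.24 to 3.14 FPKM in ECko embryos, with a median of 2.00, and 1.47 to 1.89 in EChet embryos, with a median of 1.61. In 5 ECko embryos it was above every EChet embryo and in the other 2 below all of them, so that the mean differed by 1.25 times with an adjusted p of 0.562 from limma. The spread of EChet embryos was 10.7% of their mean, no more than the 11.7% that read counts of 60 to 101 alone would give. The remaining 5 genes had log2 differences of -0.036 to 0.13, and their 95% intervals lay between -0.17 and 0.37. The narrowest was that of *Ednra*, -0.17 to 0.097.

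The effects of the global and the endothelial deletion were compared directly, in a fit of all 26 embryos with no shared controls. None of the 9 genes was called, against 2.26% of the 16877 genes tested, and 1 of 9 had an unadjusted p under 0.05, as did 21.6% of all genes tested. That gene was *Nos3*, whose log2 difference in GLOko embryos minus that in ECko embryos was -0.55 (95% interval -1.05 to -0.041, adjusted p of 0.196). For *Adm* the effects differed by 1.41 (-0.33 to 3.16), for *Edn1* by 0.55 (-0.068 to 1.17) and for *Ramp3* by -0.65 (-1.40 to 0.089). Their adjusted p values were 0.346, 0.292 and 0.299 in limma.

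*Adm* varied widely among embryos of 1 genotype, and it did so together with the hypoxia response genes. The mean log2 level of 24 such genes, which do not include *Adm*, was compared with the log2 level of *Adm* within each group. In GLOko embryos both measures put all 6 embryos in the same order, from GLOko 4 to GLOko 2, with Pearson's r of 0.943 (exact permutation p of 0.0125) and Spearman's rho of 1 (exact permutation p of 0.00278). In ECko embryos r was 0.942 (exact permutation p of 0.00218) and rho 0.929 (exact permutation p of 0.00675). Adjusted over the 16 relations computed, the p values were 0.1 and 0.0444 in GLOko and 0.0349 and 0.0540 in ECko embryos, by permutation, for r and rho in turn. Hence rho passed in GLOko embryos and r in ECko embryos. Without the 2 embryos farthest from the median of the hypoxia genes, r was 0.831 in GLOko and 0.879 in ECko embryos. These r values rest on the few embryos that remain and were given no p.

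In the control groups neither measure passed the threshold after adjustment. In WT embryos r was 0.730 and rho 0.486, with adjusted permutation p of 0.2799 and 0.559, and r dropped to 0.217 without WT 1 and WT 3. WT 3 had the highest hypoxia mean of its group, 0.83 on the log2 scale, as well as the highest *Adm*. In EChet embryos r was 0.063 and rho 0.036, and r rose to 0.676 without EChet 5 and EChet 6. In the ECko group, ECko 4 and ECko 6 had hypoxia means of 0.12 and 0.061, within the EChet range of -0.17 to 0.23, and these were the embryos lowest in *Adm*. Of the 24 genes, 23 were called higher in GLOko embryos, where 5.42% of all genes tested were, and 3 in ECko embryos, where 10 of 17514 were. The median log2 differences were 1.55 and 0.70. The list was chosen with earlier results of these data known.

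*Edn1* did not share this pattern in GLOko embryos. Its r with the hypoxia genes was -0.437 and its rho -0.429 (exact permutation p of 0.379 and 0.419), and GLOko 4, with the lowest hypoxia mean of its group, had the second highest *Edn1*. In ECko embryos r was 0.689 and rho 0.571 (exact permutation p of 0.105 and 0.2), or 0.2799 and 0.533 after adjustment, and in WT embryos r was 0.401 and rho 0.657. Neither relation of *Nos3* or *Calcrl* with the endothelial markers passed the threshold in any group, with adjusted permutation p of 0.239 and above. Over the 4 groups r ran from -0.345 to 0.455 for *Nos3* and from -0.138 to 0.888 for *Calcrl*. Without GLOko 1 and GLOko 2, r in GLOko embryos was 0.957 for *Nos3* and 0.954 for *Calcrl*. Without ECko 5 and ECko 6, r in ECko embryos was -0.680 and -0.064 in turn. Each r with embryos left out rests on the few that remain and was given no p.

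**Figure D3:**
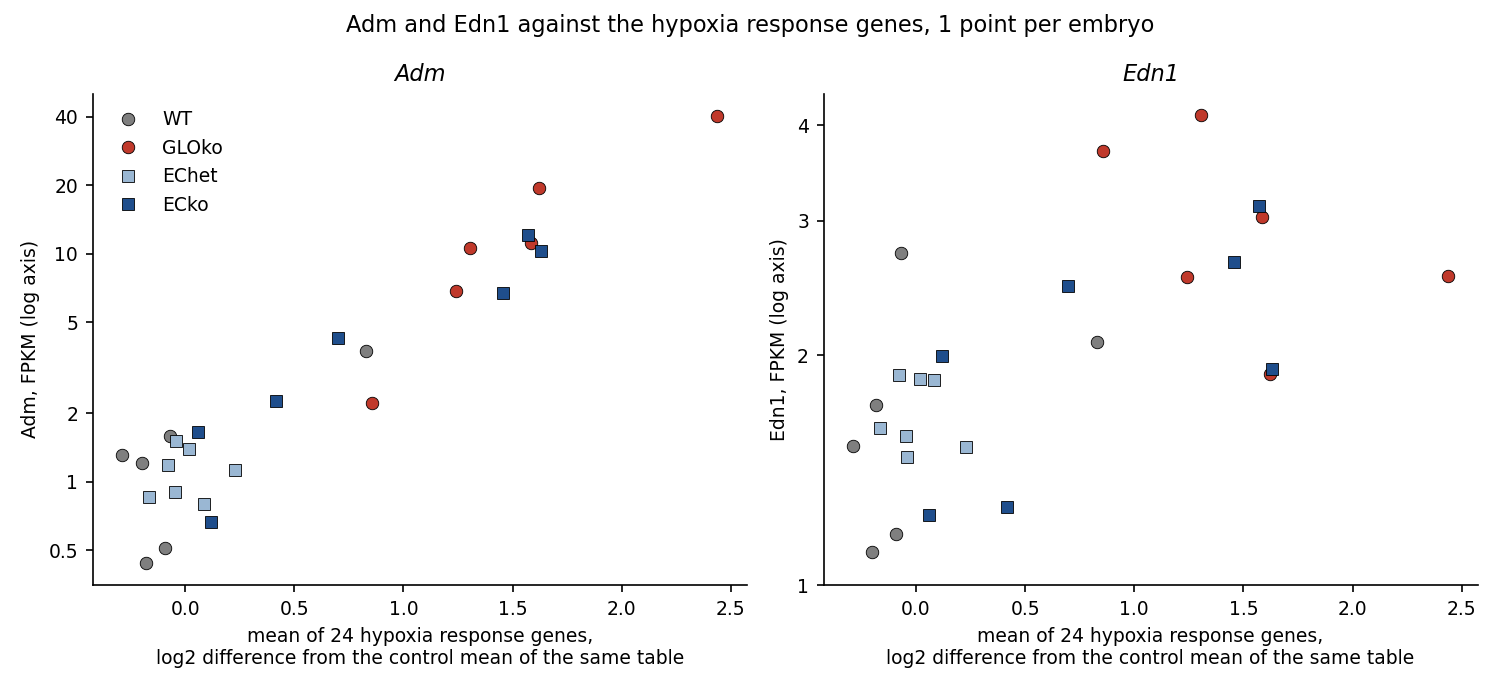
FPKM of *Adm* and of *Edn1* (vertical axes, logarithmic) against the mean log2 level of 24 hypoxia response genes relative to the controls of the same table (horizontal axes), with 1 point per embryo. Within GLOko (r = 0.943) and within ECko (r = 0.942) embryos, *Adm* was higher where the hypoxia genes were higher, while the r of *Edn1* within GLOko embryos was negative (-0.437).

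The balance of the genes within an embryo does not depend on the scaling of its library. *Nos3* was above *Edn1* in all 13 control embryos, and *Edn1* was above *Nos3* in all 6 GLOko embryos and in 3 of 7 ECko embryos. The ratio of *Edn1* to *Nos3* was 0.351 to 0.880 in WT embryos, with a median of 0.624, and 1.37 to 3.47 in GLOko embryos, with a median of 1.73. In EChet and ECko embryos the medians were 0.605 and 0.956, with ranges of 0.429 to 0.841 and 0.541 to 1.76 that overlapped. This ratio was chosen with the results of its members known and was not tested. *Nos3* shares 32.3% of its exon bases with genes on the opposite strand. Its level, and so the side of 1 on which a ratio falls, is uncertain to that extent.

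Ligand and receptor of the adrenomedullin system were compared in the same way, without a test. *Adm* was 0.297 ± 0.258 times *Calcrl* in WT embryos and 2.36 ± 1.69 times *Calcrl* in GLOko embryos (SD, n = 6 each), and 5 of 6 GLOko embryos held more *Adm* than *Edn1*, against 2 of 6 WT embryos. In ECko embryos the ratio to *Calcrl* was 0.997 ± 0.871 and in EChet embryos 0.203 ± 0.0502 (SD, n = 7 each). The GLOko range of this ratio, 0.421 to 5.20, overlapped the WT range of 0.0893 to 0.791. The ECko range, 0.142 to 2.24, took in the whole EChet range of 0.145 to 0.274. *Ramp2* was above both *Calcrl* and *Ramp3* in all 26 embryos. It was 2.44 to 3.66 times *Ramp3* in the means of the 4 groups, and 1.45 to 7.18 times *Ramp3* among GLOko embryos. *Ramp2* shares 33.4% of its exon bases with *Vps25*, and its level is uncertain to that extent. *Ednrb* was above *Ednra* in 24 of 26 embryos.

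**Figure D4:**
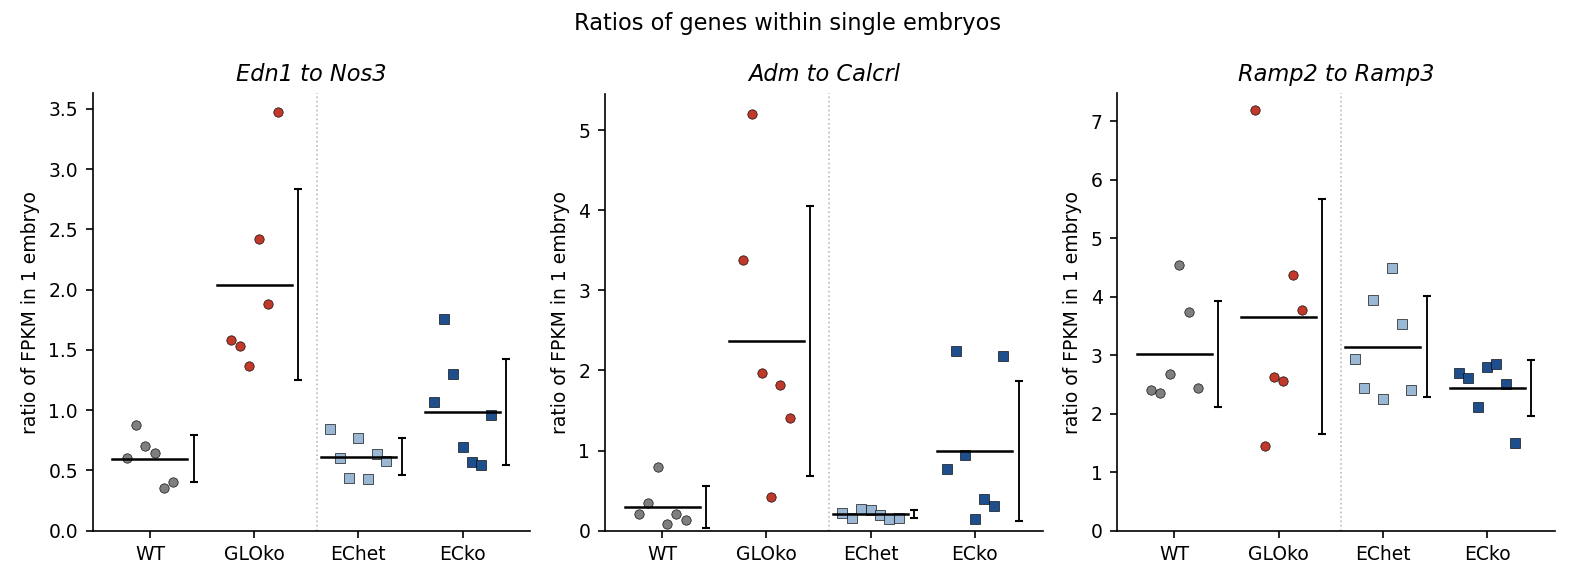
Ratios of FPKM within single embryos (vertical axes, linear from 0) are plotted by group with means and SD, for *Edn1* to *Nos3*, *Adm* to *Calcrl* and *Ramp2* to *Ramp3*. *Edn1* to *Nos3* was above 1 in all 6 GLOko embryos and below 1 in all 13 control embryos. Levels of *Nos3* and *Ramp2* are uncertain because each shares exon bases with other genes.

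Of the other genes of the endothelin system, 1 was called. Counts in this list and in those that follow stand beside the 10.4% of all genes called in GLOko embryos. Of 7 listed, 5 had enough signal to be tested in GLOko embryos, none was called higher, and *Gna11*, which encodes a G protein alpha subunit coupled to endothelin receptors, fell by 0.51 on the log2 scale (adjusted p of 0.0186, limma), from 26.8 to 18.8 FPKM in the group means. *Edn3*, the ligand of the type B receptor in neural crest, was 3.06 FPKM in WT and 3.17 in GLOko embryos, with a fitted log2 difference of -0.018. Of 8 genes that act downstream of endothelin in the pharyngeal arches, none was called in either comparison, with 1 and 2 at an unadjusted p under 0.05, which 28.3% of all genes had in GLOko and 14.5% in ECko embryos. The best expressed of them were *Msx1*, at 29.7 FPKM in WT and 25.5 in GLOko embryos, and *Hand1*, at 25.9 and 27.0 FPKM. *Hand1* ran from 4.05 to 49.2 FPKM in GLOko and from 20.9 to 31.6 in WT embryos, and its fitted log2 difference was -0.46. *Barx1*, a homeobox gene of the same list that is named here after its values were seen, had group means of 16.6 FPKM in WT and 7.85 in GLOko embryos, a log2 difference of -1.33 and an adjusted p of 0.0541 from limma. In ECko embryos no gene of these lists was called. Of 10 neural crest markers, *Kit* alone was called in GLOko embryos, and it rose by 1.05.

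Among 23 other genes of nitric oxide synthesis and response, 2 rose and 1 fell in GLOko embryos, a share near that of all genes, and the median log2 difference was 0.13. *Cav1*, the caveola protein that holds the synthase inactive, rose by 1.66 on the log2 scale, from 1.80 to 6.16 FPKM in the group means (adjusted p of 0.0461, limma). The medians of *Cav1* were 1.44 and 4.12 FPKM. Its ranges overlapped, at 0.638 to 3.91 in WT and 2.80 to 17.8 in GLOko embryos, where GLOko 2 was highest. *Ddah1*, which breaks down an inhibitor of the synthase, rose by 0.47, from 8.71 to 11.9 FPKM (adjusted p of 0.0114). *Spr*, the enzyme of the last step in making the cofactor of the synthase, fell by 0.62, from 16.2 to 10.7 FPKM (adjusted p of 0.0256). In ECko embryos, 0 of 22 tested were called, 4 of them at an unadjusted p under 0.05. For *Ddah1* the effects of the deletions differed by 0.48 (adjusted p of 0.0321).

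Of 9 other genes of the adrenomedullin and calcitonin family, 7 were tested. *Adm2*, a related peptide that acts on the same receptors, rose by 2.12 in GLOko embryos, from 0.626 to 3.28 FPKM in the group means (adjusted p of 0.0472, limma). *Crcp*, a component of the receptor for calcitonin gene-related peptide, fell by 0.76, from 22.4 to 13.3 FPKM (adjusted p of 0.0106). *Ackr3*, a scavenging receptor for adrenomedullin, and *Pam*, which adds the amide that active adrenomedullin needs, had log2 differences of 0.43 and 0.51, with adjusted p of 0.116 and 0.158. None of the 7 was called in ECko embryos, where *Adm2* had a log2 difference of 0.82 and an adjusted p of 0.331.

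Of 10 genes that respond to blood flow, 4 were called lower in GLOko embryos, where 5.01% of all genes tested were. They were *Klf2* (-3.91), *Gja4* (-1.21), *Nppc* (-2.39) and *Heyl* (-1.67), while *Cav1*, counted above as well, was called higher. The list was chosen with earlier results of these data known, and the study had named *Klf2* and *Nppc* as lower in these embryos. The count is therefore no test of genes of this kind. In ECko embryos *Klf2* alone was called (-1.34, adjusted p of 0.00911, limma). Markers of the other cell types gave no calls by limma in either comparison. All 10 cardiomyocyte and all 6 primitive red cell markers were tested. Of 8 yolk sac and liver endoderm markers, 8 were tested in GLOko and 7 in ECko embryos, and of 8 macrophage markers 6 and 3. An unadjusted p under 0.05 was reached by 1 endoderm marker in GLOko embryos and by 2 macrophage markers in ECko embryos. The summed level of macrophage markers was at most 4.49 FPKM in GLOko and 4.00 in WT embryos.

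The genes most like each of the 9 were sought by the correlation of log2 levels centered on group means, over 26 embryos and 11836 genes. These are descriptions over embryos that share libraries and depth, and carry no p. *Adm* was closest to *Ppp1r3c*, a glycogen-targeting subunit of a phosphatase, with r of 0.963, followed by *Plekha2* (0.917) and *Ier3* (0.916). Within EChet embryos alone the r with *Ppp1r3c* was 0.265. *Ednrb* was closest to *Vim*, the intermediate filament vimentin (0.941), and then to *Dclk1*, and *Ece1* to *Rrbp1*, a ribosome-binding protein of the endoplasmic reticulum (0.919), *Cul7* and *Pygb*. *Ramp2* stood nearest to the endothelial genes *Eng* (0.770), *Ddah1* (0.766) and *Emcn* (0.639), although within EChet embryos the r with *Eng* was 0.088. *Eng* and *Emcn* belong to the endothelial markers and *Ddah1* to the nitric oxide genes above.

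The other genes had neighbors of other kinds. *Nos3* was closest to *Slc25a22*, a mitochondrial glutamate carrier (0.859), *Smtn* and *Lig1*, and none of these is an endothelial marker of the list. *Ednra* was closest to *Nid1*, the basement membrane protein nidogen (0.859), *Adgrf5* and *Prrc1*, and *Calcrl* to *Foxp1* (0.758), *Dock1* and *Itga4*. Within EChet embryos alone the r of *Calcrl* was -0.578 with *Foxp1* and -0.698 with *Itga4*. The highest r of *Edn1* was the lowest of the 9, at 0.725 with *Timp1*, an inhibitor of matrix proteases, and *Ramp3* was closest to *Dcaf4* (0.843), *Cdk19* and *Bbc3*. Among the 9 themselves, the closest were *Ednra* and *Calcrl*, with r of 0.735, or 0.563 without GLOko 1, GLOko 2 and GLOko 6. *Calcrl* and *Ramp2* had an r of 0.585, or 0.645 without those embryos, while *Edn1* and *Nos3* had 0.097.

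The reads behind these values set their precision. *Ece1* had 1592 to 3670 reads per embryo, which gives a counting error of at most 2.51%, and *Ednra*, *Ednrb*, *Calcrl* and *Ramp2* had at least 324. *Nos3* had 59 to 299 reads, *Edn1* 40 to 174, *Ramp3* 27 to 146 and *Adm* 14 to 1236, with counting errors of up to 13.0%, 15.8%, 19.2% and 26.7%. In 34 of the 36 sets of 1 gene in 1 group, the spread among embryos was larger than the counting error. The exceptions were *Edn1* and *Calcrl* in EChet embryos, where *Calcrl* varied by 2.56% with a counting error of 4.26%. These errors cover counting only.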

How the data were processed

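RNA from 26 whole embryos at E9.5 was used, with 1 library per embryo and groups from the sample labels. Per the submitters' processing notes, reads were aligned by STAR to mm10. Its version, the annotation and the use of strand in counting are not given in the sources used here. As values, the authors deposited FPKM in 2 tables, in which fragments are divided by gene length and by library size. In 100% of values above 0, FPKM times gene length came to a whole number of steps of that library (tolerance 0.01 of a step), and these steps were taken as reads. The study compared each pair of groups separately, and the same was done here with no covariate, by limma because the values are not counts.

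Each library was scaled by a median-of-ratios factor. After adding 0.1, values were taken to log2, so that fold changes are on the log2(value + 0.1) scale and understate changes of low genes. Genes with a mean of at least 0.1 FPKM were tested by limma 3.58.1 (trend, robust) in R 4.3.3, each table by itself, and the difference of effects in 1 fit, two-sided, with Benjamini-Hochberg adjustment over all genes tested. The fit was tested on simulated data. Exact permutation tests went through all divisions of the embryos and are unadjusted. Python 3.11.15, numpy 2.4.6, pandas 2.3.3, SciPy 1.17.1 and matplotlib 3.10.9 were used. P values measure the spread between embryos, and litters are not given.

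The 9 genes, the lists and the alternatives were chosen with earlier results of these data known. Other genes were named by rule, namely the called genes of each list (at most 6 of smallest p), or the 2 of highest FPKM where none was called, and the 3 genes most like each of the 9 among those with a mean of at least 1 FPKM. Some lists are given by counts alone, and not every gene that the rule names is reported here. Alternatives were other pseudocounts, filters and scalings, limma-voom on the recovered reads, sample weights, the replicate number as a block, all groups in 1 fit, an endothelial covariate, and the omission of embryos. Leaving out GLOko 4 with GLOko 5, and ECko 3 with ECko 4, was chosen after seeing the data.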

Additional observations from a re-analysis of the deposited data

Results flagged for a closer look

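In each of the 36 sets of 1 gene in 1 group, the gap of the highest or lowest embryo to the next was compared with the range of the group, a check that chance alone passes in about 1 of 20 groups. It picked out 4 values. *Ednrb* in GLOko 2 was 28.2 FPKM, against 6.64 to 13.0 in the other 5 GLOko embryos. *Adm* in WT 3 was 3.76 FPKM, while the remaining 5 WT embryos had 0.440 to 1.58. *Calcrl* in GLOko 2 was 7.75 FPKM, against 4.88 to 5.82 in the other 5. *Calcrl* in ECko 3 was 7.14 FPKM, against 4.69 to 5.72 in the other 6 ECko embryos, and the cardiomyocyte markers of ECko 3 had the lowest mean of its group, -3.84 on the log2 scale.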

How the results depend on the processing

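Of the log2 differences of the 9 genes under alternatives, 720 kept their direction and side of the threshold, 25 no longer passed it, 2 came to pass it and 18 changed sign. The number of the 9 genes called higher in GLOko embryos, 2, was 1 with no filter, with FPKM as deposited, with limma-voom, with the endothelial covariate, with the replicate block and without GLOko 4 and GLOko 5, 3 with sample weights, where *Ece1* was added, and 0 without GLOko 1 and WT 4. The number called lower, 1, was 0 without GLOko 1 and WT 4. With single embryos left out the counts were 1 to 2 higher and 0 to 1 lower. *Adm* was called in 24 of 26 alternatives (adjusted p of 0.00102 to 0.0566, limma), *Nos3* in 19 (0.00117 to 0.0859) and *Edn1* in 10 (0.00936 to 0.129). In ECko embryos and in the difference of effects the number stayed at 0 throughout.

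Signs changed only for differences that were not called. For *Calcrl* in ECko embryos the difference was -0.00037 with FPKM as deposited, -0.031 with a fixed total, -0.010 with limma-voom, -0.0083 with sample weights, -0.0019 with the endothelial covariate, -0.026 without ECko 3 and ECko 4, and -0.059 to 0.042 without single embryos. For *Ece1* in ECko embryos it was -0.043 with the endothelial covariate. For *Ednrb* in GLOko embryos it was -0.11 with sample weights, -0.013 with the endothelial covariate, -0.22 without GLOko 1, GLOko 2 and GLOko 6, and -0.039 (without GLOko 2) to 0.38 without single embryos. Its difference of effects was -0.12 (without GLOko 2) to 0.30. For *Ednrb* in ECko embryos without single embryos it was -0.0014 (without EChet 5) to 0.14, for *Ramp2* in GLOko embryos -0.14 to 0.0081 (without WT 5), and for *Ramp3* in GLOko embryos -0.44 to 0.030 (without GLOko 1). The cause was not tested.

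Same-numbered embryos had correlations of -0.047 to 0.088 (GLOko and WT) and -0.081 to 0.11 (ECko and EChet), so the numbers were not taken to pair them. With the block, *Edn1* had an adjusted p of 0.0795, and calls over all genes were 1010 (1833 without) and 0 (17 without). Over all alternatives those calls were 542 to 4752 (all groups in 1 fit), 0 to 51 and, for the difference of effects, 21 to 1228 against 382. Depth limits *Adm* in control embryos, at 14 to 145 reads, and *Ramp3* and *Edn1*.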
